A study of Mus musculus with 9 samples.

Results

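Livers of mice that were fed a high-fat diet and given ginseng flower bud extract (GFB) were compared with livers of mice fed a regular diet, on 6 arrays of the 9 in the series. The rule took the 3 arrays titled as GFB samples against the 3 titled as regular-diet samples, and described them across all genes whose probe set carries 1 symbol in the array annotation, which gave 22180 genes. The mice were C57BL/6 and 5 weeks old at the start, while their strain is entered as C56BL/6J, and the sources used here do not name their sex. The regular-diet group and the extract group differed both in diet and in the extract, a daily oral dose of 500 mg/kg over 12 weeks. The regular-diet mice received vehicle, as did a further group of 3 arrays, which was fed the high-fat diet without extract. All livers were taken after a night without food, a state in which a mouse liver burns fat and makes glucose. Whether every array came from its own mouse is not stated in the labels, and the p-values then describe only the spread among these samples, which may be technical.

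The liver makes cholesterol through the mevalonate pathway, whose genes are switched on together by the transcription factor SREBP-2 when the membranes of the endoplasmic reticulum hold little sterol. Fatty acids that reach the fasting liver are oxidised in mitochondria and peroxisomes by enzymes whose genes are targets of the nuclear receptor PPAR-alpha, or they are stored in lipid droplets and exported in lipoproteins. A liver that stores fat for a long time can also show stress of the endoplasmic reticulum, acute-phase proteins, inflammatory cells and collagen.

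The values are log2 expression values after robust multi-array average (RMA) normalisation, so a difference of 1 is a change by a factor of 2. Across genes, pairs of arrays correlated at 0.991 to 0.993 within the regular diet, at 0.993 to 0.994 within the extract group and at 0.988 to 0.992 between them. Regular-diet replicate 1 stood apart from its group. Its mean correlation with the other 2 regular-diet arrays was 0.991146 and that with the 3 extract arrays was 0.991249. On the first principal component, with 29.2% of the variance over all 9 arrays, it lay at -10.8, the other 2 regular-diet arrays at -23.1 and -26.6, and the extract arrays at 10.6, 9.48 and 5.66. On the second component, with 14.1%, it lay at 17.8 beside extract replicates 1 and 2 at 14.0 and 9.65, while extract replicate 3 lay at -2.72 and the other 2 regular-diet arrays at -4.67 and -6.61. For the gene lists described below, values without regular-diet replicate 1 are also given where it changed their number of calls. This array was singled out from these same values. Leaving it out gave 267 genes called, more than the 98 from all 9 arrays and more than leaving out any other array. Calls found only without it are therefore the most favourable case. The hepatocyte markers stood in every array far above 4.74, the median of the gene means, with albumin (Alb) between 13.48 and 13.57.

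Extract-treated livers on the high-fat diet differed from regular-diet livers in 98 genes, 58 higher and 40 lower, at a Benjamini-Hochberg adjusted p under 0.05 in limma, which is 0.442% of the genes tested, or 0.261% higher and 0.180% lower. The changes ran from a fall by 1.72 to a rise of 3.49 on the log2 scale, and 36 of the 98 were larger than a factor of 2, of which 23 were higher and 13 lower. In all 98 genes the 3 extract arrays lay outside the range of the 3 regular-diet arrays, as they did for 3243 genes, 14.6% of those tested. At an unadjusted p under 0.05 there were 1284 higher and 1389 lower genes. The median difference over all genes was 0.00.

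The number of calls moved with single arrays. Without regular-diet replicate 1 there were 267 calls, 86 of them among the 98. There were 15 without regular-diet replicate 2 and 18 without replicate 3. Leaving out extract replicate 1, 2 or 3 gave 3, 2 and 35 calls. Leaving out high-fat diet replicate 1, 2 or 3, which enter only the estimate of the spread, gave 50, 72 and 49. Only Sqle and the non-coding RNA gene C730002L08Rik passed in each of these 9 fits. For each of the 39 called genes that the naming rule below selected, the sign of the difference was the same in every such fit. Mvk, Sc5d and Dhcr7 are not among these.

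**Figure D1:**
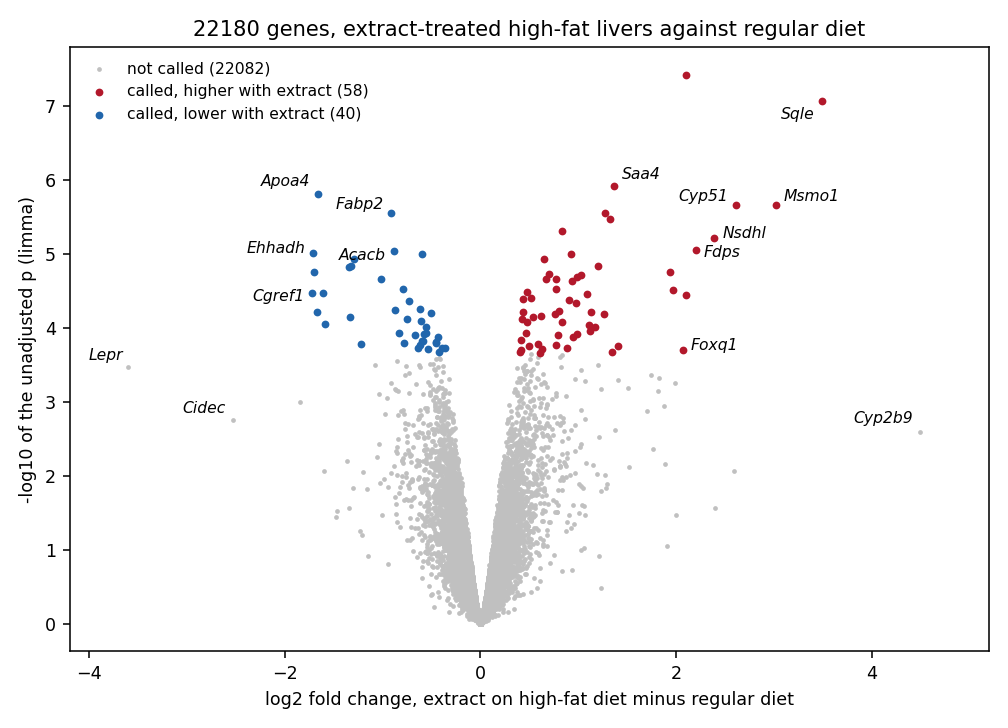
Each point is 1 of 22180 genes, with the log2 fold change of extract-treated high-fat livers over regular-diet livers on the x axis and -log10 of the unadjusted limma p on the y axis; red points are the 58 genes called higher and blue points the 40 called lower. Sqle, Msmo1 and Cyp51 lie at the far right among the called genes, Ehhadh, Cgref1 and Apoa4 at the left, and Lepr, Cidec and Cyp2b9 lie far out but below the called genes.

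Genes of cholesterol synthesis were higher in the extract-treated livers. All 16 measured genes of the 20 listed had extract arrays above the 3 regular-diet arrays. Over all genes, 14.6% had no overlap between these groups, in either direction. Of the 16 genes, 11 passed higher and 0 lower, and the median difference was 1.16 against 0.00 over all genes. In a bulk liver sample, more cells of a type and more RNA per cell cannot be told apart. The promoters of these genes are shown first, since the pathway moved as a group and is known to be driven through short sterol regulatory elements that work beside CCAAT boxes. Each line reads 5′ to 3′ on the strand that matches the gene's RNA, comes from the RefSeq annotation of mouse assembly GRCm38.p6 and lies before the annotated start. Capitals mark the letters TCACNCCAC, the core of a sterol regulatory element, and CCAAT, or ATTGG where CCAAT is on the other strand.
Hmgcs1 (chr13:119690169-119690267, plus strand): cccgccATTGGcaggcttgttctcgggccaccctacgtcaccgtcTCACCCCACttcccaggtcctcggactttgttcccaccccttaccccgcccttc
Cyp51 (chr5:4104698-4104766, minus strand): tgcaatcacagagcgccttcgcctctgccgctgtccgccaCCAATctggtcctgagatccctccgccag
Msmo1 (chr8:64733589-64733673, minus strand): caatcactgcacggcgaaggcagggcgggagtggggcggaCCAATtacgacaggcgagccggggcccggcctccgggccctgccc
Nsdhl (chrX:72918461-72918520, plus strand): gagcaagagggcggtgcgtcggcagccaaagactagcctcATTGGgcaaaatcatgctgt
Dhcr7 (chr7:143830125-143830209, plus strand): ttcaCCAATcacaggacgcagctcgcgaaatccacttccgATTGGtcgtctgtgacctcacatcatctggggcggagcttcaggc

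The Hmgcs1 element lies 137 to 129 bases before the annotated start. In windows of 300 bases around the start, searched on both strands, CCAAT was found in 13 of the 13 cholesterol synthesis genes with a window (100%), against 41.62% of the 16918 tested genes with one. TCACNCCAC was found in 1 of these 13 (7.692%), against 1.43% of all. The sterol sensing, uptake and export list held TCACNCCAC in 0 of 9 genes with a window and CCAAT in 6 (66.67%). The fatty acid oxidation list, described below, held TCACNCCAC in 1 of 22 (4.545%) and CCAAT in 10 (45.45%). Of the 39 genes called higher with a window, 24 held CCAAT (61.54%) and 3 held TCACNCCAC (7.692%), namely Hmgcs1, Clcn7 and Mapk6. Of the 30 called lower, 13 held CCAAT (43.33%) and 1 held TCACNCCAC (3.333%). The 24 are not separate from the cholesterol synthesis genes. They include Cyp51, Dhcr7, Hmgcs1, Lss, Msmo1, Mvk, Nsdhl, Sc5d and Tm7sf2 of that list, and the sterol-sensing genes Insig1 and Srebf2. A match is a description of letters in the window and not a site.

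Sqle, squalene epoxidase, which adds oxygen to squalene in a rate-controlling step after the mevalonate stage, rose most among the called genes (probe set 17311807). Its log2 values were 4.53, 4.25 and 4.69 on the regular diet and 7.79, 8.37 and 7.77 with extract. The groups lie far apart, and the difference was 3.49 ± 0.23 (SE), 11.2-fold, with an adjusted p of 0.000941 in limma. Over the 9 fits that left out 1 array, its difference ran from 3.30 to 3.60 and its adjusted p did not exceed 0.00945.

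Early steps of the pathway were measured in 6 genes. Hmgcs1, the synthase that makes HMG-CoA, read 8.56, 7.99 and 7.97 on the regular diet and 10.45, 10.36 and 10.004 with extract. The change was 2.10 ± 0.28, 4.28-fold, with an adjusted p of 0.0208. Fdps, which joins isoprene units into farnesyl diphosphate, went from 6.36, 6.37 and 5.77 to 8.43, 8.72 and 7.97, a rise of 2.21 ± 0.25 with an adjusted p of 0.014. Both genes were raised in all 3 extract arrays, and the lowest extract array stood more than a log2 unit above the highest regular-diet array. The mevalonate kinase gene Mvk passed with a smaller rise of 0.93 ± 0.12 and an adjusted p of 0.0171. Mvd, Pmvk and Fdft1, which decarboxylate, phosphorylate and condense pathway intermediates, had differences of 0.83, 0.71 and 1.02 and did not pass, with adjusted p of 0.0619, 0.163 and 0.113.

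Of the enzymes that turn squalene into cholesterol, Sqle and 7 others passed. Msmo1, which removes methyl groups from the sterol ring, read 5.47, 6.53 and 6.03 on the regular diet and 9.04, 9.29 and 8.75 with extract, a rise of 3.02 ± 0.29, 8.09-fold, with an adjusted p of 0.00783. Cyp51, the lanosterol demethylase, went from 5.49, 6.31 and 6.09 to 8.51, 8.85 and 8.36, a rise of 2.61 ± 0.25, 6.10-fold, with an adjusted p of 0.00783. Nsdhl, which acts with Msmo1 in the same demethylation, went from 6.50, 6.39 and 6.30 to 8.69, 9.19 and 8.48, a rise of 2.39 ± 0.26 with an adjusted p of 0.0123. None of these ranges overlap, and regular-diet replicate 1 was the lowest array of its group for Msmo1 and Cyp51 but the highest for Nsdhl. The sterol cyclase Lss, the reductases Tm7sf2 and Dhcr7 and the desaturase Sc5d rose by 1.35, 1.20, 1.13 and 0.77, with adjusted p of 0.0484, 0.0159, 0.0274 and 0.0206. Lss passed in 1 of the 9 fits that left out an array, with an adjusted p of up to 0.176. The isomerase Ebp and the reductase Hsd17b7 had differences of 0.31 and 0.65 and adjusted p of 0.244 and 0.236.

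The high-fat diet arrays without extract are set beside these values. The list's median difference from the regular diet was 0.93 on the high-fat diet alone and 1.16 with extract, both against the same regular-diet arrays. For Sqle the high-fat diet arrays read 7.37, 7.65 and 6.79, and for Cyp51 7.88, 8.37 and 7.52, below the extract arrays except for an overlap in Cyp51. Extract arrays exceeded high-fat diet arrays by 0.71 (95% interval 0.18 to 1.24) for Sqle and by 0.65 (0.08 to 1.22) for Cyp51, with adjusted p of 0.728 and 0.802 over all genes. For 0 of the 16 genes did that difference pass. Without regular-diet replicate 1 the list had a median of 1.11 and 11 genes higher, Lss not among them (1.15, adjusted p 0.0587). There were 3 such genes without regular-diet replicate 2 or without replicate 3, 1 without extract replicate 1 or 2 and 7 without extract replicate 3, while the median stayed between 1.08 and 1.22.

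**Figure D2:**
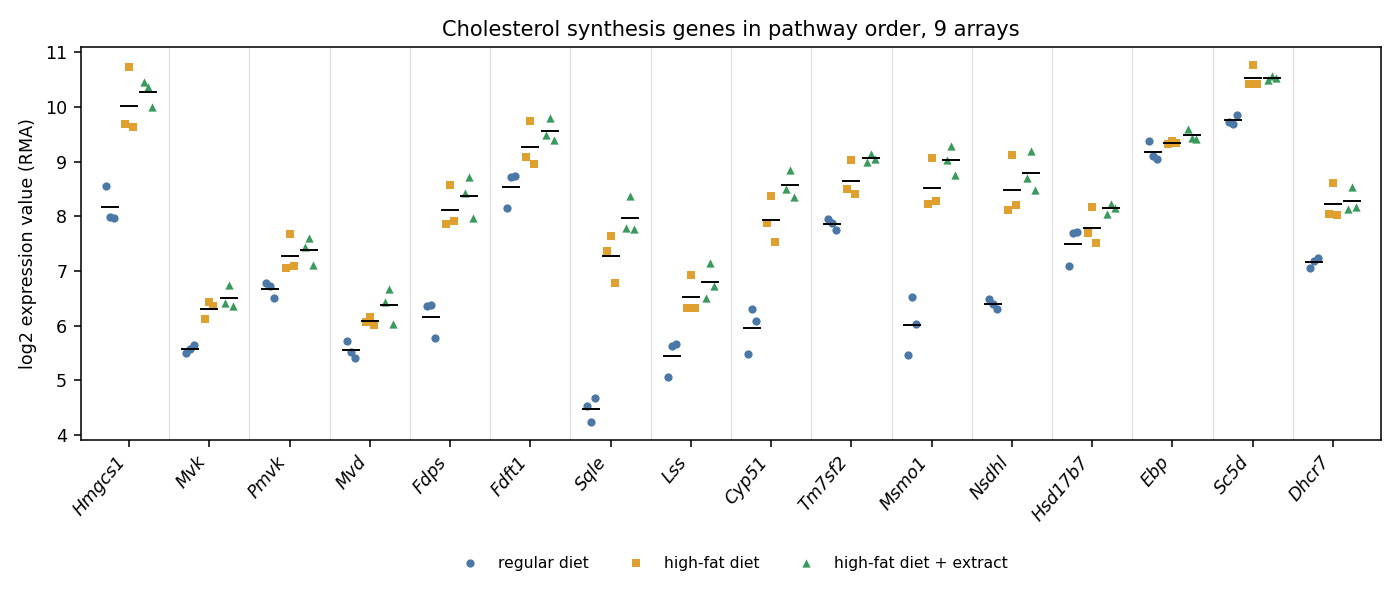
Log2 expression values of the 16 measured cholesterol synthesis genes in pathway order, for 3 regular-diet arrays (circles), 3 high-fat diet arrays (squares) and 3 high-fat diet arrays with extract (triangles), with a bar at each group mean. In every gene the triangles lie above the circles, by a mean of 3.49 for Sqle and 0.31 for Ebp. The triangles also lie above the squares for Sqle, by a mean of 0.71, and overlap them for Cyp51, Msmo1 and Nsdhl.

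Genes that sense and move sterols were split. Of 13 measured, 3 passed higher and 0 lower, and the median was 0.06. Insig1, the protein that holds SREBP in the endoplasmic reticulum and is itself an SREBP target, read 8.72, 8.81 and 8.21 on the regular diet and 10.56, 10.78 and 10.21 with extract. It rose by 1.93 ± 0.24, 3.82-fold, with an adjusted p of 0.0168. Srebf2, which encodes SREBP-2, rose by 0.99 ± 0.13 from a regular-diet range of 6.76 to 6.84 to 7.54 to 7.91, with an adjusted p of 0.0168. Stard4, a carrier of cholesterol between membranes, rose by 1.12 ± 0.17 with an adjusted p of 0.0374. Its high-fat diet arrays read 7.51, 7.54 and 7.28, closer to the regular-diet values of 7.16, 7.13 and 6.80 than to the extract values of 8.27, 8.42 and 7.74, and extract exceeded the high-fat diet alone by 0.70 (0.31 to 1.10, adjusted p 0.574). The SREBP escort Scap differed by 0.23 with an adjusted p of 0.208. None of the 13 passed without regular-diet replicate 2 or 3 or without extract replicate 1 or 2.

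Fat-burning genes had lower values in most members. Of 27 measured PPAR-alpha targets and oxidation enzymes, 2 passed lower and 0 higher, 26 had a negative difference, and the median was -0.41. In 16 the extract arrays all lay below the regular-diet arrays, beside 14.6% of all genes without overlap in either direction. Ehhadh, the bifunctional enzyme of peroxisomal oxidation and a marker of PPAR-alpha activity, read 11.60, 12.13 and 12.02 on the regular diet and 10.35, 9.82 and 10.45 with extract. It fell by 1.71 ± 0.20, 3.28-fold, with an adjusted p of 0.014. Acot1, which cleaves fatty acyl-CoA in the cytosol, went from 9.23, 9.30 and 9.27 to 7.96, 7.83 and 8.11, a change of -1.30 ± 0.15 with an adjusted p of 0.0147. Acot1 has near-identical neighbours in its family, so its probes may also read those. In both genes every regular-diet array lay above every extract array.

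Other members had smaller differences and did not pass. Hadha, of the mitochondrial trifunctional protein, differed by -0.43 (adjusted p 0.0547) and the peroxisomal thiolase Acaa1b by -0.85 (adjusted p 0.0588). The fasting hormone gene Fgf21 read 7.18, 6.94 and 7.12 on the regular diet and 5.82, 6.36 and 5.96 with extract, a difference of -1.03 with an adjusted p of 0.089. Cpt1a, the gate of fatty acid entry into mitochondria, differed by -0.49 with an adjusted p of 0.187. For Ehhadh the high-fat diet arrays overlapped the extract arrays, with a difference of 0.15 (-0.29 to 0.60, adjusted p 0.931). For Acot1 the high-fat diet arrays, at 7.82, 7.53 and 7.13, all lay below the extract arrays. There extract exceeded the high-fat diet alone by 0.47 (0.13 to 0.82, adjusted p 0.726). Without regular-diet replicate 1 the list had 4 genes lower and a median of -0.49, as Hadha (-0.49, adjusted p 0.025) and Acaa1b (-1.01, adjusted p 0.0154) then passed. Without high-fat diet replicate 1 there were 3, and without regular-diet replicate 2 or 3 or extract replicate 1 or 2 there were 0, with medians of -0.31 to -0.38.

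Genes of lipid droplets and fat uptake gave 3 lower and 0 higher calls among 21 measured, with 14 negative differences and a median of -0.32. Fabp2, a fatty acid binding protein best known from the gut, went from 10.29, 10.30 and 10.16 to 9.32, 9.26 and 9.43. The change was -0.91 ± 0.09 with an adjusted p of 0.00783. Plin5, a droplet coat protein of fat-burning tissues, read 8.82, 8.57 and 8.94 on the regular diet and 7.9998, 7.67 and 7.63 with extract, a change of -1.01 ± 0.13 with an adjusted p of 0.0168. Mgll, which cleaves monoglycerides, changed by -0.73 ± 0.10 with an adjusted p of 0.023. In these 3 genes the extract and regular-diet groups do not overlap. The high-fat diet means of Fabp2 and Plin5, 9.51 and 7.80, lay beside the extract means of 9.34 and 7.76, with overlapping arrays. For Mgll the high-fat diet arrays, at 8.87, 8.85 and 8.90, all lay above the extract arrays, at 8.62, 8.72 and 8.50, with a difference of -0.26 (-0.49 to -0.03, adjusted p 0.802).

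Cidec, which fuses lipid droplets into larger ones, had a difference larger than any of these but a wide spread. Its regular-diet arrays read 6.83, 8.52 and 9.42, its extract arrays 5.53, 5.43 and 6.23, and its high-fat diet arrays 7.17, 7.47 and 8.41. The extract arrays were the lowest 3 of the 9, with replicate 1 of the regular diet the nearest to them. The difference from the regular diet was -2.53 ± 0.58 (-3.84 to -1.21, adjusted p 0.127) and that from the high-fat diet alone -1.95 ± 0.58 (-3.26 to -0.64, adjusted p 0.702). Without regular-diet replicate 1, Cidec passed, with a difference from the regular diet of -3.24 and an adjusted p of 0.0158. Plin2, the common droplet coat protein, differed by -0.35 with overlapping groups and an adjusted p of 0.34. The fatty acid transporter Cd36 read 8.50, 8.44 and 8.41 on the regular diet, 9.21, 10.07 and 9.86 on the high-fat diet and 9.14, 8.19 and 8.85 with extract. Its difference from the regular diet was 0.28 (-0.30 to 0.86, adjusted p 0.72), and extract differed from the high-fat diet alone by -0.99 (-1.57 to -0.41, adjusted p 0.606). Pparg, a regulator of fat storage, differed from the regular diet by 0.58 (adjusted p 0.282). Over the whole list, the median of the extract arrays against the high-fat diet alone was -0.34. Leaving out regular-diet replicate 1, 2 or 3 gave 5, 2 and 1 genes lower in this list, and leaving out extract replicate 1, 2 or 3 gave 0, 0 and 1. Without high-fat diet replicate 1 or 3 there were 2.

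Fatty acid and triglyceride synthesis gave 1 call among 21 genes and a median of 0.07. The called gene was Acacb, the acetyl-CoA carboxylase at the mitochondrial surface whose product blocks fatty acid entry. It read 7.03, 7.03 and 6.80 on the regular diet and 6.05, 6.24 and 5.90 with extract, a change of -0.88 ± 0.10 with an adjusted p of 0.014. The high-fat diet arrays, at 6.52, 6.46 and 6.52, lay between the groups. Acacb did not pass without regular-diet replicate 2 or without extract replicate 1 or 2. The fatty acid synthase gene Fasn had a difference of 0.92 (adjusted p 0.238), Srebf1 of 0.82 (adjusted p 0.25), Thrsp of 1.52 (adjusted p 0.216) and the desaturase Scd1 of -0.58 (adjusted p 0.328). In these 4 genes the groups did not overlap, with Scd1 at 12.49 to 12.70 on the regular diet and 11.92 to 12.12 with extract. Over the 21 genes, the extract arrays all lay above the regular diet in 7 and below it in 5. Of all genes, 14.6% had no overlap in either direction.

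Among 15 lipoprotein genes, 2 passed lower and 0 higher, around a median of 0.00. Apoa4, an apolipoprotein of chylomicrons and HDL that liver also makes when fat accumulates, read 12.61, 12.85 and 13.13 on the regular diet and 11.03, 11.20 and 11.36 with extract (probe set 17516908). The fall of 1.66 ± 0.16, 3.17-fold, had an adjusted p of 0.00783. Its high-fat diet arrays, at 12.07, 12.44 and 12.45, lay below every regular-diet array and above every extract array. Extract differed from the high-fat diet alone by -1.12 (-1.47 to -0.77), with an adjusted p of 0.146. Apoc2, the activator of lipoprotein lipase, went from 10.15, 10.16 and 10.16 to 9.53, 9.60 and 9.55, a change of -0.60 ± 0.07 with an adjusted p of 0.014. The difference from the high-fat diet alone was -0.42 (-0.57 to -0.26, adjusted p 0.292). Both genes were called without regular-diet replicate 1, and only Apoa4 without regular-diet replicate 2 or 3. Neither was called without extract replicate 1 or 2.

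**Figure D3:**
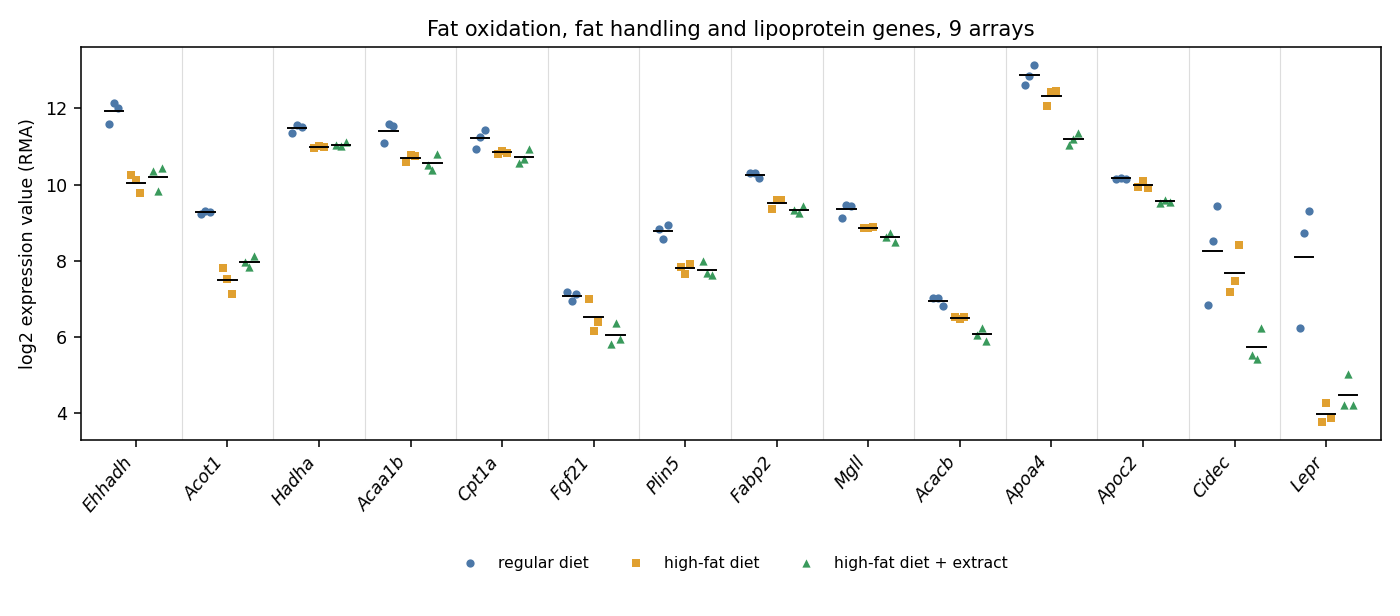
Log2 expression values of 14 genes of fat oxidation, fat handling, lipoproteins and the leptin receptor by array, with symbols as for the sterol genes and a bar at each group mean. For Apoa4 and Apoc2 the 3 extract arrays lie below both other groups, for Ehhadh beside the high-fat diet arrays and for Acot1 between the other groups. For Cidec and Lepr regular-diet replicate 1 lies 1.69 and 2.51 below the next array of its group.

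No gene of glucose production passed in the fit of all 9 arrays. Of 11 measured, 10 had a negative difference, with a median of -0.30. The extract arrays all lay below the regular diet in 4 genes and above it in 1, beside 14.6% of all genes without overlap. The rate-setting enzyme gene Pck1 read 12.20, 12.47 and 12.39 on the regular diet and 11.08, 11.55 and 12.29 with extract, a difference of -0.71 (-1.29 to -0.13, adjusted p 0.312). The last enzyme, G6pc, differed by -0.55 (adjusted p 0.494) and Fbp1 by -0.45 (adjusted p 0.124). Extract replicate 3 was close to the regular diet for Pck1, and extract replicate 1 was the lowest for both Pck1 and G6pc. When regular-diet replicate 1 was left out, the median was -0.39 and 1 gene was lower, the aspartate aminotransferase gene Got1 at -1.61 (adjusted p 0.0429). Of 16 insulin signalling genes, 0 passed and the median was 0.01. Irs2, the insulin receptor substrate that fasting raises, read 6.81, 7.19 and 6.89 on the regular diet, 5.98, 6.06 and 6.00 on the high-fat diet and 6.45, 6.83 and 6.90 with extract. Its difference from the regular diet was -0.24 (-0.54 to 0.07, adjusted p 0.542), and extract exceeded the high-fat diet alone by 0.71 (0.41 to 1.01, adjusted p 0.325).

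Hormone and receptor genes were mixed. Of 10 secreted liver hormones, 1 passed, or 2 without regular-diet replicate 1, as the chemotactic protein gene Lect2 then passed at 0.96 (adjusted p 0.0169). The gene called in the fit of all 9 arrays was Fetub, which encodes fetuin-B. It read 10.86, 10.68 and 10.55 on the regular diet and 11.32, 11.39 and 11.40 with extract, a rise of 0.67 ± 0.09 with an adjusted p of 0.0168. Dio1, the deiodinase that activates thyroid hormone, went from 8.66, 8.86 and 8.40 to 9.60, 10.11 and 10.44, a rise of 1.41 ± 0.23 with an adjusted p of 0.0458. The high-fat diet arrays of Dio1 read 10.60, 9.95 and 10.55, and extract differed from them by -0.32 (-0.85 to 0.21, adjusted p 0.873). The leptin receptor gene Lepr had the largest negative difference of any gene named here, -3.60 ± 0.65 (-5.08 to -2.13), but an adjusted p of 0.0619. Its regular-diet arrays read 6.23, 8.73 and 9.30 and its extract arrays 4.23, 5.02 and 4.21, and replicate 1 lay apart from the other regular-diet arrays. Without it Lepr passed, with a difference of -4.53 and an adjusted p of 0.00185. The growth hormone receptor Ghr and Igf1 had differences of 0.47 and 0.38, with adjusted p of 0.0653 and 0.0903, and without regular-diet replicate 1 Ghr passed at 0.52 (adjusted p 0.0495). Dio1 failed in 8 of the 9 fits that left out an array, and Fetub in those without regular-diet replicate 2 or 3 or any 1 of the extract arrays.

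Acute-phase genes leaned higher. Of 22 measured, 2 passed higher and 0 lower, 21 differences were positive and the median was 0.34. Saa4, the constitutive serum amyloid A of HDL, read 10.71, 10.70 and 10.91 on the regular diet and 12.20, 12.12 and 12.10 with extract. It rose by 1.36 ± 0.12, 2.57-fold, with an adjusted p of 0.00783, and extract differed from the high-fat diet alone by -0.05 (-0.33 to 0.23). Steap4, a metal reductase that inflammation induces, went from 7.64, 7.40 and 7.28 to 8.56, 8.45 and 8.39, a rise of 1.03 ± 0.13 with an adjusted p of 0.0168. Its high-fat diet arrays read 9.39, 8.98 and 9.02, all above the extract arrays, which lay -0.67 from them (-0.96 to -0.38, adjusted p 0.325). Lcn2, lipocalin-2, read 5.57, 6.20 and 5.34 on the regular diet, 8.62, 8.31 and 8.37 on the high-fat diet and 6.11, 6.28 and 7.56 with extract. Extract replicate 3 lay apart from the other 2, the difference from the regular diet was 0.95 (adjusted p 0.325), and that from the high-fat diet alone was -1.79 (-2.58 to -0.99, adjusted p 0.336). Extract replicate 3 was also high for the acid glycoprotein gene Orm2, at 9.68 against 6.47 and 6.58 in the other extract arrays. Without extract replicate 3 the median of the list was 0.24, with 1 gene higher. There was also 1 without regular-diet replicate 2 or 3, there were 0 without extract replicate 1 or 2, and there were 3 without regular-diet replicate 1.

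Ly96, which encodes MD-2, the partner of the endotoxin receptor TLR4, rose by 1.27 ± 0.13, 2.41-fold, with an adjusted p of 0.00783. It read 5.94, 5.63 and 5.82 on the regular diet, 6.73, 6.87 and 6.59 on the high-fat diet and 7.21, 7.16 and 6.83 with extract. Ly96 did not pass without extract replicate 1 or 2. Among 16 complement genes the lectin-pathway protease Masp1 alone passed in the fit of all 9 arrays, with a rise of 0.61 ± 0.09 (adjusted p 0.0287), and it passed in 2 of the 9 fits that left out an array. The median was 0.24. The lectin Mbl2 also passed when regular-diet replicate 1 was left out, at 0.48 (adjusted p 0.0448), so that 2 genes were higher. Of 27 cytokine and chemokine genes 0 passed, with a median of 0.08 against the regular diet and of -0.04 against the high-fat diet alone. Tnf and Il6 differed by 0.20 (-0.01 to 0.42) and 0.06 (-0.22 to 0.34), at levels below the median gene mean in all arrays. Ccl2, which recruits monocytes, differed by 0.28 (-0.23 to 0.80, adjusted p 0.685). The neutrophil attractant Cxcl1 read 5.40, 5.39 and 5.30 on the regular diet, 6.30, 6.10 and 6.20 on the high-fat diet and 5.33, 5.42 and 5.59 with extract. Its extract and regular-diet arrays overlapped, with a difference of 0.08 (-0.12 to 0.28, adjusted p 0.759), and extract lay -0.75 from the high-fat diet alone (-0.95 to -0.55, adjusted p 0.0851).

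The interferon-response list had 0 calls among its 25 measured genes in the fit of all 9 arrays. Its median was 0.24 against the regular diet and -0.36 against the high-fat diet alone. Gbp10, a guanylate-binding protein whose close relatives may share its probes, read 8.53, 7.03 and 6.70 on the regular diet, 10.10, 10.14 and 10.03 on the high-fat diet and 9.13, 9.05 and 9.18 with extract. The extract arrays lay between the other groups, 1.70 from the regular diet (adjusted p 0.113) and -0.97 from the high-fat diet (adjusted p 0.802). Regular-diet replicate 1 was high for the whole list, with a list mean of 6.55 against 6.05 and 6.08 in the other 2, and without it 4 genes of the list were higher, with a median of 0.34. Gbp10 was among them at 2.26 (adjusted p 0.000486), as was Ifit1, which blocks translation of viral RNA, at 1.53 (adjusted p 0.0117). Of 22 stellate cell and matrix genes 0 passed, with a median of 0.06 against the regular diet and of -0.09 against the high-fat diet alone. Col1a1, the main fibrous collagen chain, read 5.93, 5.79 and 5.93 on the regular diet, 6.43, 6.84 and 6.92 on the high-fat diet and 5.68, 5.62 and 5.75 with extract. It differed from the regular diet by -0.20 (-0.47 to 0.07, adjusted p 0.575) and from the high-fat diet alone by -1.05 (-1.32 to -0.77, adjusted p 0.0851). Col3a1 differed from the regular diet by -0.01 (-0.33 to 0.31) and from the high-fat diet alone by -1.15 (-1.47 to -0.83, adjusted p 0.0975).

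Drug-metabolising cytochromes P450 gave 2 higher and 0 lower calls among 28, with 23 positive differences and a median of 0.33. The called genes were Cyp2c54 and Cyp2c50, members of a large cluster of near-identical genes whose probes may read more than 1 of them. Cyp2c54 read 10.04, 9.72 and 9.64 on the regular diet, 9.99, 10.54 and 9.74 on the high-fat diet and 11.07, 11.06 and 11.05 with extract. The rise over the regular diet was 1.26 ± 0.18 (adjusted p 0.0274) and the difference from the high-fat diet alone 0.97 (0.55 to 1.38, adjusted p 0.325). Cyp2c50 rose by 1.08 ± 0.15 with an adjusted p of 0.0206. Cyp1a2, the caffeine-metabolising enzyme, differed by 0.97 (adjusted p 0.074). Cyp2b9, an inducible member, had the largest positive difference of the list, 4.50 ± 1.10 (2.02 to 6.98), with an adjusted p of 0.146. It read 5.00, 3.47 and 3.56 on the regular diet and 9.08, 9.14 and 7.30 with extract, and from 6.52 to 11.37 on the high-fat diet. Without regular-diet replicate 1 the list had 5 genes higher, Cyp1a2 among them at 1.17 (adjusted p 0.0175), and without regular-diet replicate 2 or 3 or any 1 of the extract arrays it had 0.

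Carboxylesterases, which cleave esters of drugs and lipids, had 1 higher call among 12, all 12 differences were positive and the median was 0.51. The list's median was 0.45 for the high-fat diet alone against the regular diet, and 0.08 for extract against the high-fat diet alone. Ces2a read 9.29, 9.34 and 9.28 on the regular diet, 9.02, 9.16 and 9.02 on the high-fat diet and 9.76, 9.87 and 9.81 with extract (probe set 17504477). Its rise over the regular diet was 0.51 ± 0.07, 1.43-fold, with an adjusted p of 0.0224. Its extract arrays exceeded the high-fat diet alone by 0.75 (0.59 to 0.91), 1.68-fold, with an adjusted p of 0.0376. It was the only gene that passed between the extract and the high-fat diet alone, 0.00451% of those tested, where 1327 genes had an unadjusted p under 0.05. Ces1g had a difference of 1.98 with an adjusted p of 0.0788, from regular-diet values of 8.88, 8.56 and 7.27. The rise of Ces2a over the regular diet did not pass without regular-diet replicate 2 or 3, without any 1 of the extract arrays, or in a fit of the 6 arrays alone. Without regular-diet replicate 1, 4 genes of the list were higher, Ces1g among them at 2.31 (adjusted p 0.0367).

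**Figure D4:**
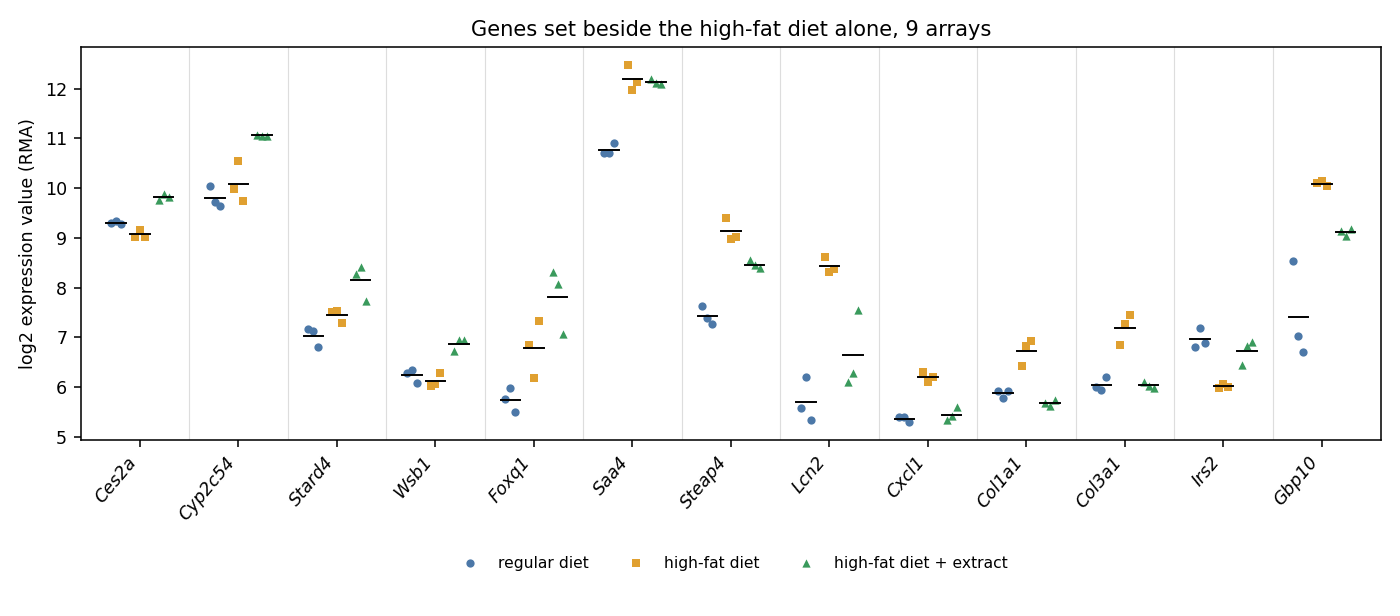
Log2 expression values of 13 genes by array for the regular diet (circles), the high-fat diet (squares) and the high-fat diet with extract (triangles), with a bar at each group mean. For Ces2a and Cyp2c54 the extract arrays lie above both other groups, for Saa4 they lie beside the high-fat diet arrays, for Steap4 and Gbp10 between the groups, and for Cxcl1, Col3a1 and Irs2 in or near the range of the regular diet.

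Outside these lists, Foxq1, a forkhead transcription factor, rose by 2.07 ± 0.35, 4.20-fold, with an adjusted p of 0.047. It read 5.76, 5.98 and 5.51 on the regular diet and 8.32, 8.08 and 7.06 with extract, and extract replicate 3 lay within the high-fat diet range of 6.18 to 7.33. Tlcd2, a membrane lipid regulator, rose by 1.32 ± 0.13 with an adjusted p of 0.0082. Its mean was 9.33 on the high-fat diet alone and 9.26 with extract, a difference of -0.07 (-0.38 to 0.23, adjusted p 0.954). Among the genes that passed, the largest fall was that of Cgref1, a secreted calcium-binding protein, which went from 6.26, 6.30 and 6.96 to 4.61, 4.57 and 5.17. It fell by 1.72 ± 0.23, 3.30-fold, with an adjusted p of 0.0206. Lamb3, a laminin chain of epithelial basement membranes, fell by 1.59 ± 0.24 (adjusted p 0.0322). Cntnap1, a contactin-associated cell surface protein, and Tmem86a, a lysoplasmalogenase, each fell by 1.34, with adjusted p of 0.0159 and 0.0287. Pgm3, which makes UDP-GlcNAc precursors, fell by 1.32 ± 0.16 (adjusted p 0.0159). Brap, Kif21a and Lgals4, a ubiquitin ligase, a kinesin and galectin-4, fell by 0.87, 0.83 and 0.78, with adjusted p of 0.0274, 0.0381 and 0.0448. The 3 regular-diet arrays lay above the 3 extract arrays in each of these falling genes. Foxq1 failed in 7 of the 9 fits that left out an array and Lamb3 in 7, while Tlcd2, Cntnap1 and Pgm3 failed only without extract replicate 1 or 2. Of the other genes, Cgref1 passed in 5 of these fits, Brap in 3, Tmem86a in 2 and Kif21a and Lgals4 in 1. The called genes that the naming rule did not select were 36 higher, by 0.40 to 2.10, and 23 lower, from -1.70 to -0.36. Mvk, Sc5d and Dhcr7, given above with cholesterol synthesis, are among the 36.

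Stress and energy genes had shared signs with 0 calls in the fit of all 9 arrays. For the counts without overlap below, the share over all genes was 14.6%, both directions together. Of 22 genes of the unfolded protein response, which folds proteins in the endoplasmic reticulum, 21 differences were positive, 11 groups did not overlap and the median was 0.42, with Hyou1 at 0.87 (adjusted p 0.242) and Canx at 0.44 (adjusted p 0.125). Canx passed when regular-diet replicate 1 was left out, at 0.54 (adjusted p 0.0343), and so did the disulphide isomerase Pdia6, at 1.13 (adjusted p 0.0438). All 9 heat shock genes had negative differences, with a median of -0.28, and Hspd1, the mitochondrial chaperonin, differed by -0.38 (adjusted p 0.17). Hspd1 passed in the fit without regular-diet replicate 1 at -0.49 (adjusted p 0.0381), as did its partner Hspe1 at -0.44 (adjusted p 0.0355). Of 27 nuclear genes of oxidative phosphorylation, 23 differences were negative, 15 groups did not overlap on the low side and the median was -0.14. Cox5a, a subunit of cytochrome oxidase, read 9.34, 9.41 and 9.32 on the regular diet and 8.97, 8.99 and 8.95 with extract, a difference of -0.38 with an adjusted p of 0.0657. The cytochrome c gene Cycs passed without regular-diet replicate 1, at -0.64 (adjusted p 0.0221).

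Markers of the cells that a liver sample can hold moved little. Of 12 hepatocyte markers 0 passed, with a median of 0.08 and list means of 11.7 to 11.8 in every array. Of 12 Kupffer cell markers 0 passed, with a median of 0.00, and Clec4f, the lectin specific to Kupffer cells, differed by 0.04 (-0.27 to 0.34). Among 13 markers of lipid-associated macrophages, 1 passed. Cd9, a tetraspanin that other cell types also carry, went from 6.91, 6.62 and 6.83 to 6.11, 5.99 and 5.89, a fall by 0.79 ± 0.10 (adjusted p 0.0206), while Trem2 and Gpnmb differed by -0.06 and -0.20. The fall of Cd9 did not pass without regular-diet replicate 3 or without any 1 of the extract arrays. The proton pump subunit Atp6v0d2 of the same list read 3.79, 3.74 and 4.33 on the regular diet and 5.90, 5.73 and 5.44 with extract, a difference of 1.74 with an adjusted p of 0.0696. Of the 14 endothelial markers 0 passed, with a median of 0.08 against the regular diet and of 0.33 against the high-fat diet alone. In all 9 arrays, 12 of 17 lymphocyte, 9 of 11 neutrophil, 4 of 6 pancreas and 4 of 7 adipose markers were below the median gene mean, and 0 of each list passed. Of the bile duct markers 5 of 9 were that low and 0 passed, and 1 red blood cell marker was measured, at a difference of 0.05. The part of cell composition in the gene changes above was not tested.

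**Figure D5:**
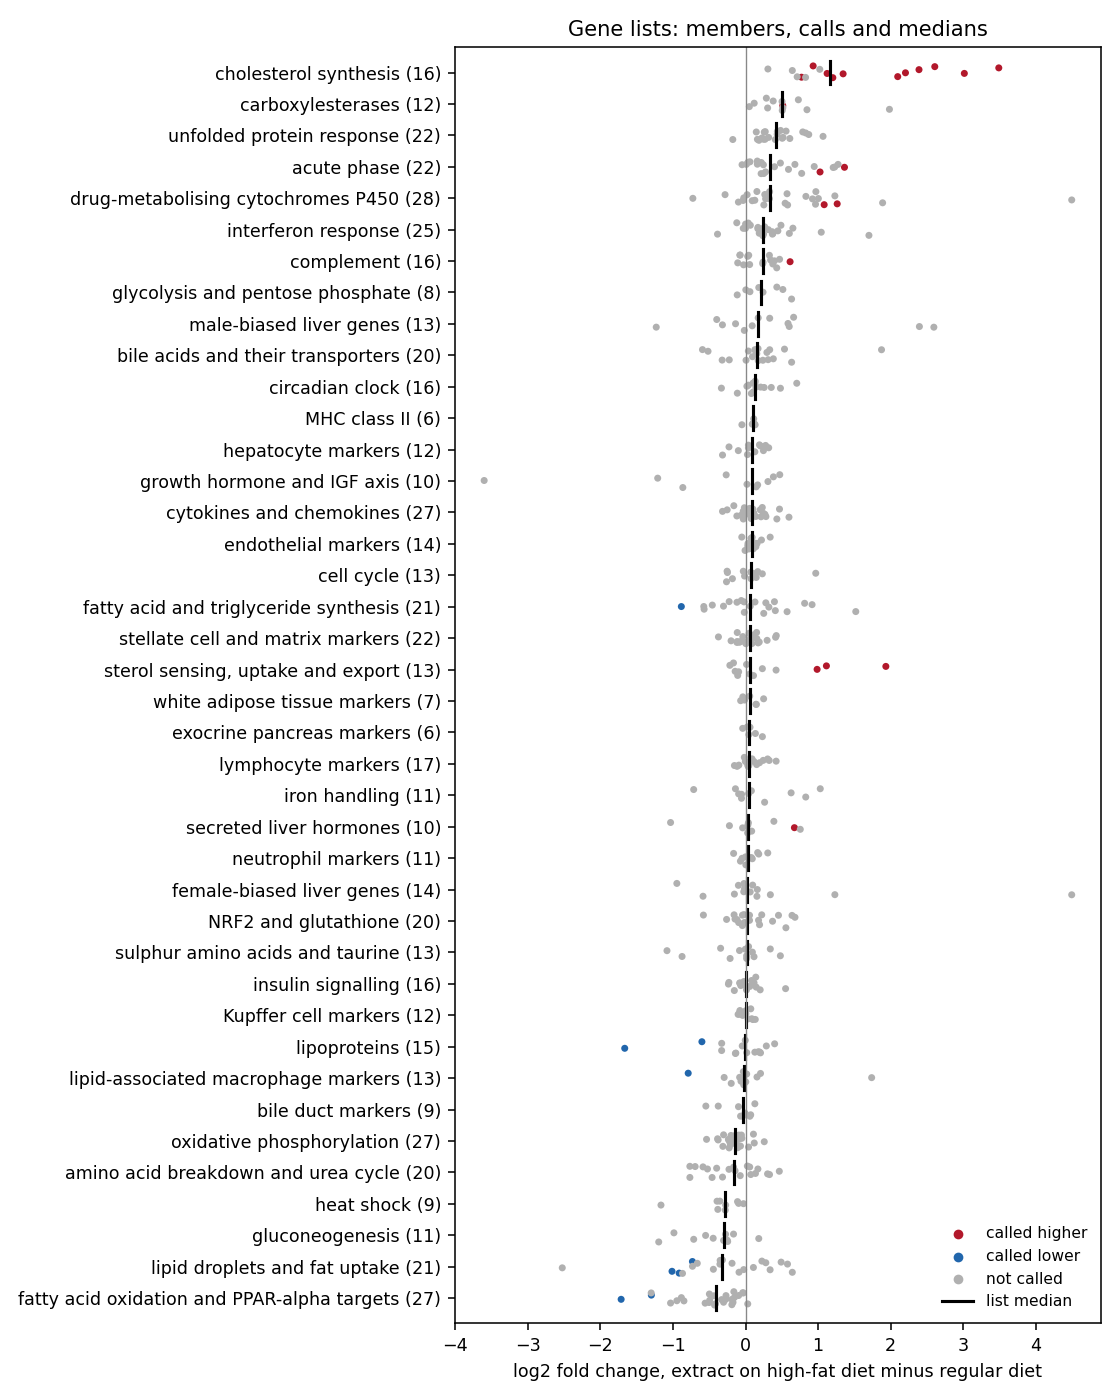
Log2 fold change of extract-treated high-fat livers over regular-diet livers for every measured member of the gene lists (number in brackets), ordered by the list median, with called members in red (higher) or blue (lower) and a black bar at each median. The red blood cell list, with 1 measured member, is not drawn. Cholesterol synthesis lies at the top with a median of 1.16 and 11 red points, and fatty acid oxidation at the bottom with -0.41 and 2 blue points.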

How the data were processed

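Liver total RNA was labelled with biotin and hybridised to whole-transcript arrays, 1 per sample. The authors deposited log2 expression values per probe set, for which the submitters' processing notes name RMA (robust multi-array average) and the package oligo, without versions. RMA removes a shift that most genes of an array share, and a dim probe set still has a value. The genome build was not given in the sources used here.

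Of 41345 probe sets, 23521 had 1 gene symbol, 1814 several and 16010 none. Only the first kind was used, with the probe set of the highest mean over the 9 arrays for each of the 1082 genes with several. By gene identifier, 21994 of the 22180 symbols equalled those of RefSeq GRCm38.p6 and 186 had no match.

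A mean for each of 3 groups was fitted to all 9 arrays with limma 3.58.1 in R 4.3.3, two-sided, with 6 residual and 3.28 prior degrees of freedom, and p-values were adjusted by Benjamini-Hochberg over 22180 genes. Errors are standard errors and brackets give 95% intervals from that fit. An exact permutation test of 3 arrays against 3 cannot go below p = 0.1. The scripts were first tested on simulated data with known changes. Named were the 15 called genes that rose most and the 15 that fell most, without predicted genes and small RNAs, up to 4 genes of smallest p per list, and a set of lipid, glucose and inflammation genes. Of 677 symbols in 41 lists, 605 were measured. The genes and lists were chosen with earlier results of these data known. Equal replicate numbers were not used as pairs, since the labels do not state that they share anything. Residual profiles of same-numbered arrays correlated at -0.0511 to 0.173, above 0.1 in 1 of 9 pairs.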

Additional observations from a re-analysis of the deposited data

How the results depend on the processing

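The 98 calls (58 higher, 40 lower) became 143 with a variance trend and robust fitting, where 61 were lower, and 232 (127 and 105) among genes above the median gene mean. An adjusted p under 0.10 gave 216 (125 and 91). The 6 compared arrays alone gave 34 (27 and 7), of which 28 were among the 98. With the replicate number as a block there were 68 calls, 56 of them among the 98, with 23 lower, and 3 of 9 arrays correlated best with their own number. Leaving out 1 array gave 2 to 267 calls, from 2 to 126 higher and from 0 to 141 lower. Averaging a gene's probe sets, a second quantile normalization, a median shift, array weights or a fold change of at least 1.5 gave 96, 102, 82, 103 and 74. Of the 39 named genes that were called, 21 lost their call with the 6 arrays alone and 38 without extract replicate 1 or without extract replicate 2, and 0 of the 193 named genes changed sign while called. The medians of 15 of the 41 lists, from -0.04 to 0.11 in the fit of all 9 arrays, changed sign under at least 1 alternative, among them lipoproteins (from -0.0375 to 0.0744 when 1 array was left out) and white adipose markers (-0.0136 with averaged probe sets, -0.0205 without extract replicate 3). With 3 arrays a group, a missed threshold does not show that a gene was unchanged, and values near background compress fold changes.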

Other observations

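The genes here were chosen after their values were seen. Partners of the sterol enzymes that were on no list passed higher. Erg28, a scaffold of sterol demethylation, read 8.52, 8.77 and 8.84 on the regular diet and 9.57, 9.75 and 9.65 with extract, a rise of 0.95 ± 0.15 with an adjusted p of 0.0402 in limma. Cyb5r3 and Cyb5b, a reductase and a cytochrome b5 that pass electrons to lipid enzymes, rose by 0.92 ± 0.11 and 0.99 ± 0.16, with adjusted p of 0.014 and 0.0381. Gulo, the last enzyme of vitamin C synthesis in mice, rose by 0.89 ± 0.15 from 10.76, 10.36 and 10.10 to 11.18, 11.43 and 11.28 (adjusted p 0.0465), and the vitamin C transporter Slc23a1 rose by 0.83 ± 0.09 (adjusted p 0.0108). The high-fat diet arrays of Slc23a1, at 9.56, 9.51 and 9.52, all lay above its extract arrays, with a difference of -0.46 (-0.66 to -0.26, adjusted p 0.325). Against the high-fat diet alone, extract differed by 0.20 for Erg28, -0.08 for Cyb5r3, -0.11 for Cyb5b and 0.05 for Gulo. The adjusted p of these were 0.881, 0.935, 0.935 and 0.975. The coagulation genes F11 and Proz rose by 1.11 and 0.44, with adjusted p of 0.0324 and 0.0274. In the retinoid genes Aldh1a1 and Retsat the changes were 0.77 and -0.59, with adjusted p of 0.0452 and 0.0435. From the high-fat diet alone, F11, Proz, Aldh1a1 and Retsat differed by 0.05, 0.01, -0.13 and 0.27, with adjusted p of 0.769 to 0.990. Oas1b and Ifitm2, interferon-related genes outside the interferon-response list, passed in opposite directions, at 0.48 and -0.55, with adjusted p of 0.0206 and 0.0381. Extract differed from the high-fat diet alone by -0.04 for Oas1b and -0.03 for Ifitm2, with adjusted p of 0.944 and 0.976. Wsb1, part of a ubiquitin ligase, read 6.28, 6.35 and 6.09 on the regular diet, 6.02, 6.07 and 6.29 on the high-fat diet and 6.72, 6.94 and 6.95 with extract. It rose by 0.63 ± 0.11 over the regular diet (adjusted p 0.0469) and lay 0.74 above the high-fat diet alone (adjusted p 0.146).

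Small nucleolar RNAs, which guide the modification of ribosomal RNA, had lower values in most members. Of 74 measured, 5 passed lower and 0 higher, 70 differences were negative, and the median was -0.35. In 46 the extract arrays all lay below the regular diet, beside 14.6% of all genes without overlap in either direction. Snora73b read 10.93, 10.81 and 10.39 on the regular diet, 9.21, 8.76 and 9.65 on the high-fat diet and 9.05, 8.92 and 9.06 with extract, a change of -1.70 ± 0.21 over the regular diet (adjusted p 0.0168). Snora73a and the U3 gene Rnu3a changed by -1.61 and -1.67, with adjusted p of 0.0206 and 0.0274. Snora73a and Snora73b are close copies, so their probes may read both. Of 86 ribosomal protein genes 0 passed, with 61 negative and 25 positive differences and a median of -0.10. Their extract arrays all lay below the regular diet in 31 genes and above it in 4, beside the same 14.6%. Of 15 Cyp2c genes 14 differences were positive, with a median of 0.58. Themis, known from T cells, read 3.82, 4.403 and 4.13 on the regular diet, 6.35, 6.66 and 6.87 on the high-fat diet and 4.74, 3.82 and 5.06 with extract. It differed from the regular diet by 0.42 (-0.24 to 1.08) and from the high-fat diet alone by -2.09 (-2.75 to -1.43, adjusted p 0.146).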
